A study of Mus musculus with 8 samples.

Results

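YAP (gene Yap1) and its relative TAZ (gene Wwtr1), the 4 TEAD transcription factors through which they act, and 4 of their best known target genes were followed in sorted hair follicle stem cells of mouse back skin. The 10 genes, Yap1, Wwtr1, Tead1, Tead2, Tead3, Tead4, Ctgf, Cyr61, Ankrd1 and Amotl2, were picked by symbol from the 28792 symbols of the deposited tables, and rows of the same symbol were added together. All 10 were found. Of the 8 samples of the series, 4 are RNA sequencing libraries, with 1 library in each group. The other 4, from chromatin immunoprecipitation, were not used here.

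The libraries form 2 pairs. In the first pair, K15CrePGR females of postnatal day 99 on a C57BL6/129Sv background with a Rosa-YFP reporter carried either floxed Ctnnb1 on both alleles (Ctnnb1fl/fl, labelled cKO) or a floxed copy beside a wild-type copy (Ctnnb1+/fl, labelled Het). Ctnnb1 encodes β-catenin, the transducer of canonical Wnt signalling. The Cre is tied to the keratin 15 promoter, which is active in the bulge, so the Het cells also carry Cre, a floxed allele and the reporter. CrePGR is a fusion to a progesterone receptor part that acts only with an inducing drug; the labels used here do not state its dosing. In the second pair, C57BL6 males of day 24 carried 1 Axin2-LacZ allele (Axin2LacZ/+), and bulge cells taken as telogen (rest) gave way to anagen (growth) were sorted by reporter activity (LacZ-positive or LacZ-negative). Both fractions therefore share the reporter allele. The growth protocol places the first pair in telogen and the series design places it at the start of anagen. The sources used here do not say whether mice were pooled for a library.

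YAP and TAZ are coactivators without a DNA-binding domain of their own. When the Hippo kinases (MST and LATS) are active, YAP and TAZ are phosphorylated and held in the cytoplasm; when the kinases are quiet, as on stiff matrix or at low cell density, they enter the nucleus, bind TEAD factors and switch on growth and matrix genes. In skin YAP is known for its role in the proliferation of basal epidermal cells. Because much of this control acts on the protein and its place in the cell, transcript levels of Yap1 or Wwtr1 do not measure their activity.

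Values are FPKM, that is, fragments relative to transcript length and library size; no read counts were kept, so depth is unknown. As each group is 1 library, no test and no replicate error can be given, and every difference describes these libraries. Differences are log2 of (FPKM + 1) in the first-named library over the second, for genes that reach 1 FPKM in either; a gene is counted as differing at 2-fold or more, a log2 difference of at least 1 or at most -1. This scale understates changes of low genes. Ctnnb1 stood at 370 FPKM in the library labelled cKO and 251 FPKM in that labelled Het, opposite to a loss. A value for the whole gene cannot tell the deleted exons from the rest, so Ctnnb1 does not check the genotype, and the libraries are called by their labels. Axin2, a direct target gene of β-catenin, was at 2.12 FPKM in the library labelled cKO and 16.3 FPKM in that labelled Het (log2 difference -2.47). Axin2, whose reporter allele was used for the sort, was at 19.0 FPKM in LacZ-positive and 9.10 FPKM in LacZ-negative cells (0.98). It therefore ran the way the labels say in both pairs. Of 10 bulge and basal keratinocyte markers, all reached 1 FPKM in at least 1 library of each pair. Krt15, a bulge keratin, stood at 7528 FPKM in the library labelled cKO, 6208 FPKM in that labelled Het and 5951 FPKM in the LacZ-positive library, and is listed at 0 in the LacZ-negative library; an exact 0 can be a failed estimate. In the first pair 9 of the 10 markers were higher and 1 lower in the library labelled cKO (median 0.26) and 0 passed 2-fold, with Krt14 at 0.67, Nfatc1 at -0.52 and Tcf7l1 at 0.39. Of all genes compared in that pair, 60.9% were higher. In the second pair 4 were higher (Krt15 among them) and 6 lower in LacZ-positive cells, with a median of -0.39 beside -0.13 for all genes. Of all genes compared, 36.6% were higher there. Leaving out Krt15 for its listed 0, the median of the 9 other markers was -0.52. Relative to the pair's median, that of all 10 was -0.22. Over the 5 markers whose genomic interval holds no other row, Krt15 among them, it was 0.09, so its sign depended on the markers kept. Besides Krt15, the higher markers were Krt14 at 0.32, Nfatc1 at 0.09 and Itga6 at 0.05. Cd34, a surface marker of the bulge, was past 2-fold, at 223 FPKM in LacZ-positive and 516 FPKM in LacZ-negative cells (log2 difference -1.21), with Lhx2 at -0.74, Krt5 at -0.61, Itgb4 at -0.59 and Sox9 at -0.52. In bulk cells, fewer cells of a type and less RNA per cell cannot be told apart.

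The 10 genes spanned nearly the whole range of expression. Ctgf and Cyr61 were among the most abundant transcripts of the first pair, Yap1 was steady everywhere, and Ankrd1 was at or next to 0 in all 4 libraries. Of the 9 genes that reached 1 FPKM, Cyr61 was the 1 gene past 2-fold in the first pair, higher in the library labelled cKO, where 1.80% of all genes compared were past 2-fold upward and 2.29% downward. Tead2 was the 1 gene past 2-fold in the second pair, lower in LacZ-positive cells, where 4.67% of all genes were past 2-fold upward and 2.60% downward (620 and 346 genes, or 804 and 224 after centring on the pair's median). Over the 9 genes, 6 were higher and 3 lower in the library labelled cKO (median log2 difference 0.33, beside 0.06 for all genes), and 4 were higher and 5 lower in LacZ-positive cells (median -0.08, beside -0.13). Of all genes compared, 60.9% were higher in the library labelled cKO and 36.6% in LacZ-positive cells, so both counts lay near those shares. The same shares are the background for the counts of higher and lower genes in the lists below. The median of the second pair turned to 0.09 when differences were taken relative to genes at 5 FPKM or more, whose own median was -0.17.

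**Figure D1:**
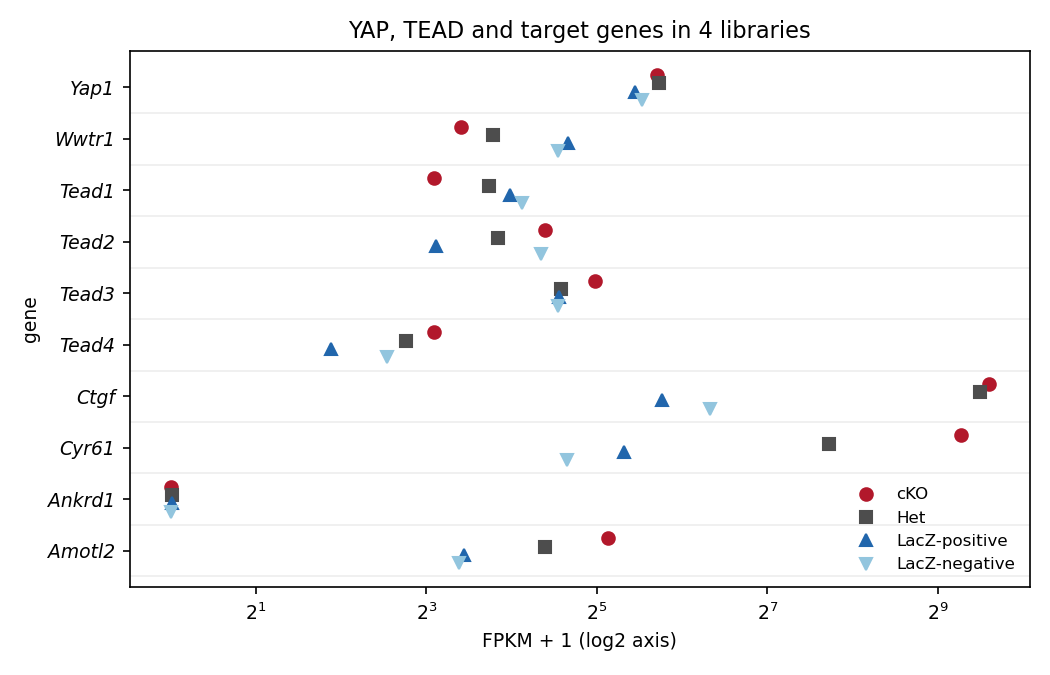
Levels of the 10 genes (rows, italic) in the cKO, Het, LacZ-positive and LacZ-negative libraries (1 marker per library, no error bar since each group has 1 library). The horizontal axis is FPKM + 1 on a log2 scale. The 4 Yap1 markers lie close together, while those of Ctgf and Cyr61 spread widely, with cKO and Het to the right of both LacZ libraries.

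Of the coactivators, Yap1 (ENSMUSG00000053110, mm9 chromosome 9, 7931998 to 8004596, an interval shared with 1 other row that is listed at 0 throughout) stood at 51.1 FPKM in the library labelled cKO and 51.9 FPKM in that labelled Het, a log2 difference of -0.02. The LacZ pair held it at 42.8 FPKM in LacZ-positive and 45.3 FPKM in LacZ-negative cells, a log2 difference of -0.08 that turned to 0.09 when the pair was centred on its median. Its highest level was 1.21 times its lowest over the 4 libraries, beside 1.36 times for Tead3 and more for the other measured members. By level Yap1 ranked 1862 of 28792 symbols in the library labelled cKO, 1726 in that labelled Het, 2206 in the LacZ-positive and 2378 in the LacZ-negative library.

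Wwtr1 (ENSMUSG00000027803, mm9 chromosome 3, 57259570 to 57379832, alone in its interval), the gene of TAZ, stood at 9.61 FPKM in the library labelled cKO and 12.7 FPKM in that labelled Het, a log2 difference of -0.37. Its level was 24.3 FPKM in LacZ-positive and 22.4 FPKM in LacZ-negative cells, a log2 difference of 0.12, or 0.29 relative to the pair's median. Neither difference reached 2-fold. Yap1 was the more abundant coactivator transcript per length in every library: Wwtr1 made up 15.8% of the Yap1 and Wwtr1 sum in the library labelled cKO, 19.7% in that labelled Het, 36.3% in the LacZ-positive and 33.0% in the LacZ-negative library. The sum itself lay between 60.7 and 67.7 FPKM.

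The TEAD factors bind DNA and recruit the coactivators. Tead3 had the highest level of the family in all 4 libraries and Tead4 the lowest (level with Tead1 in the library labelled cKO), and the shares of Tead1 and Tead2 varied. Tead3 (ENSMUSG00000002249, mm9 chromosome 17, 28468615 to 28487750, alone in its interval) stood at 30.4 FPKM in the library labelled cKO and 23.0 FPKM in that labelled Het, a log2 difference of 0.39. Between the LacZ fractions it was level, at 22.5 FPKM in LacZ-positive and 22.3 FPKM in LacZ-negative cells.

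Tead2 (ENSMUSG00000030796, mm9 chromosome 7, 52471122 to 52494485) stood at 7.64 FPKM in LacZ-positive and 19.3 FPKM in LacZ-negative cells, a log2 difference of -1.23. It ranked 194 from the lowest of the 13283 genes compared. Genes reaching 5 FPKM in both LacZ libraries had a median log2 difference of -0.17 and a central 95% between -0.91 and 0.85; relative to that median Tead2 was at -1.06. With a pseudocount of 5 its difference was -0.94, inside the 2-fold line. Its interval also holds the leukocyte gene Cd37, at 0.0469 FPKM in LacZ-positive and 0.491 FPKM in LacZ-negative cells. In the first pair Tead2 stood at 19.9 FPKM in the library labelled cKO and 13.3 FPKM in that labelled Het, a log2 difference of 0.55. The direction thus was opposite in the pairs, and the LacZ-positive library had the lowest level of the 4. The bulge marker Cd34 was also lower past 2-fold in LacZ-positive cells; its part in the Tead2 difference was not tested.

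Tead4 (ENSMUSG00000030353, mm9 chromosome 6, 128174305 to 128250841, alone in its interval) stood at 2.69 FPKM in LacZ-positive and 4.80 FPKM in LacZ-negative cells, a log2 difference of -0.65, or -0.48 relative to the pair's median. It stood at 7.51 FPKM in the library labelled cKO and 5.76 FPKM in that labelled Het, a log2 difference of 0.33. Its directions were those of Tead2, and the more common direction over all genes in each pair, without reaching 2-fold in either.

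Tead1 is given in 2 rows that share an interval (ENSMUSG00000055320 and ENSMUSG00000055593, mm9 chromosome 7, 119756981 to 120050321). Summed, it stood at 7.52 FPKM in the library labelled cKO and 12.3 FPKM in that labelled Het, a log2 difference of -0.65, and the single rows were at -0.58 and -0.60. For the LacZ fractions the sum was 14.8 FPKM in LacZ-positive and 16.4 FPKM in LacZ-negative cells, a log2 difference of -0.15 that turned to 0.02 relative to the pair's median. There the rows went opposite ways: 1 was at 6.52 FPKM in LacZ-positive and 4.41 FPKM in LacZ-negative cells, and the other at 8.23 FPKM in LacZ-positive and 12.0 FPKM in LacZ-negative cells. Rows of overlapping models can divide the same reads.

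Shares of the TEAD sum do not depend on how a library was scaled. Tead1 made up 11.5% of the sum in the library labelled cKO and 22.7% in that labelled Het, against 31.0% in the LacZ-positive and 26.1% in the LacZ-negative library. Tead2 made up 30.5% in the library labelled cKO and 24.5% in that labelled Het. It made up 16.1% in the LacZ-positive and 30.7% in the LacZ-negative library. Tead3 held between 35.5% and 47.2%. The family sum was 65.4 FPKM in the library labelled cKO and 54.4 FPKM in that labelled Het, and 47.5 FPKM in LacZ-positive and 62.9 FPKM in LacZ-negative cells.

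**Figure D2:**
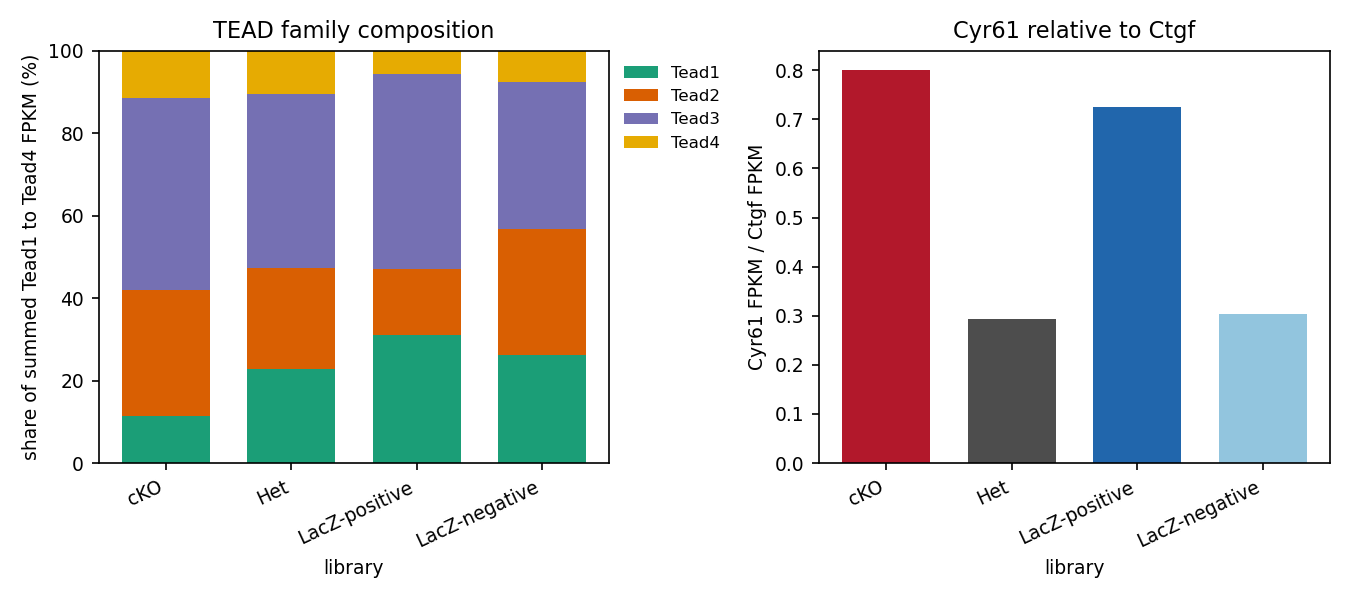
Left, share of each TEAD gene in the summed FPKM of Tead1 to Tead4 (vertical axis, %) in the cKO, Het, LacZ-positive and LacZ-negative libraries. Right, FPKM of Cyr61 divided by that of Ctgf (vertical axis, from 0) in the same libraries; each bar is 1 library, so there are no error bars. The Tead2 segment is smallest in the LacZ-positive library, at 16.1%, and the ratio is 0.800 and 0.725 in the cKO and LacZ-positive libraries, against 0.293 and 0.303 in the Het and LacZ-negative libraries.

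Cyr61 (ENSMUSG00000028195, mm9 chromosome 3, 145309934 to 145312949, alone in its interval), also named Ccn1, encodes a secreted matrix-associated protein and is an early responder to YAP as well as to growth factors. It stood at 618 FPKM in the library labelled cKO and 210 FPKM in that labelled Het, a log2 difference of 1.55. In the authors' deposited table its log2 fold change is 1.56. It ranked 127 from the highest of the 13014 genes compared. Among the 714 genes that reached 100 FPKM in either library, leaving out small RNA and clone names, it ranked 5 and 3.08% were higher by 2-fold or more; this subset was chosen after the values were seen. Cyr61 stood at 38.8 FPKM in LacZ-positive and 24.1 FPKM in LacZ-negative cells, a log2 difference of 0.66, or 0.83 relative to the pair's median. It was therefore higher in the first-named library of both pairs and past 2-fold only in the first pair; the difference between the pairs was not tested.

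Ctgf (ENSMUSG00000019997, mm9 chromosome 10, 24269246 to 24318489), also named Ccn2, encodes connective tissue growth factor, a matricellular protein of the same family. It stood at 773 FPKM in the library labelled cKO and 719 FPKM in that labelled Het, a log2 difference of 0.10. Between the LacZ fractions Ctgf was at 53.5 FPKM in LacZ-positive and 79.6 FPKM in LacZ-negative cells, a log2 difference of -0.56, or -0.39 relative to the pair's median. The interval also holds Gm15270, at 21.6 FPKM in the library labelled cKO and 17.6 FPKM in that labelled Het and at 7.41 FPKM in LacZ-positive and 5.22 FPKM in LacZ-negative cells. The related target genes thus parted: the ratio of Cyr61 to Ctgf was 0.800 in the library labelled cKO and 0.293 in that labelled Het, and 0.725 in LacZ-positive cells and 0.303 in LacZ-negative cells. A ratio within a library shows unequal change and does not say which gene moved.

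Amotl2 (ENSMUSG00000032531, mm9 chromosome 9, 102619001 to 102635748, alone in its interval) encodes an angiomotin-family protein that binds YAP at junctions and is itself a YAP target. It stood at 34.1 FPKM in the library labelled cKO and 20.0 FPKM in that labelled Het, a log2 difference of 0.74. Genes that reached 5 FPKM in both libraries of the first pair had a central 95% between -0.50 and 0.61, so Amotl2 lay outside that range and inside the 2-fold line. Tead1, lower at -0.65, and Cyr61, higher at 1.55, also lay outside that range. Amotl2 was at 9.86 FPKM in LacZ-positive and 9.45 FPKM in LacZ-negative cells, a log2 difference of 0.06.

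Ankrd1 (ENSMUSG00000024803, mm9 chromosome 19, 36186454 to 36194334), an ankyrin repeat protein gene widely used as a YAP readout in cultured cells and heart, is listed at 0 in the library labelled cKO and at 0.0115 FPKM in that labelled Het. It is at 0.0116 FPKM in LacZ-positive cells and listed at 0 in LacZ-negative cells. No fold is given, and Ankrd1 did not enter the counts.

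**Figure D3:**
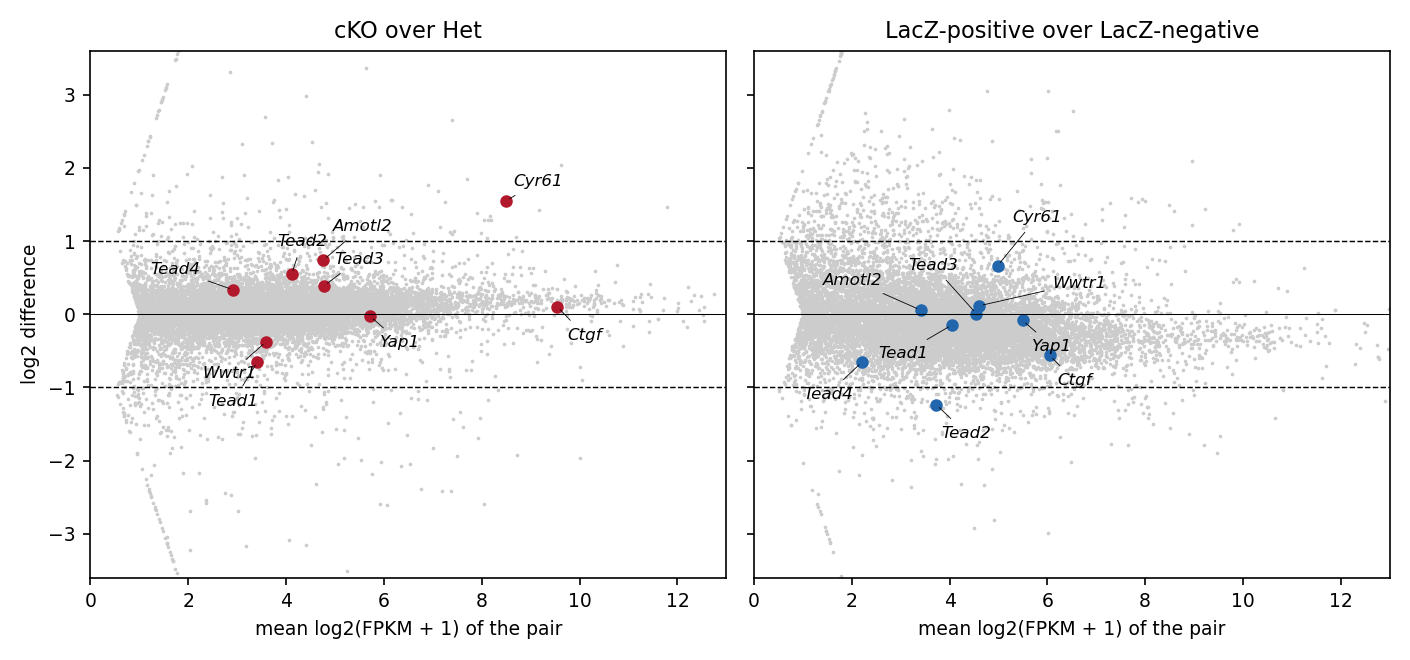
Log2 difference (vertical axis) against the mean log2 of (FPKM + 1) of the pair (horizontal axis) for all genes that reached 1 FPKM in either library (grey) and the 9 measured YAP, TEAD and target genes (coloured, named). Left, cKO over Het (13014 genes, of which 124 lie beyond the axis limit of 3.6 in either direction); right, LacZ-positive over LacZ-negative (13283 genes, 135 beyond). Dashed lines mark 2-fold: Cyr61 lies above the upper line at left and Tead2 below the lower line at right.

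The promoters of Cyr61 and Amotl2, the target genes with the largest differences in the first pair, are shown beside that of Ankrd1, which carried the same motif at next to no transcript. These are the 250 bases upstream of the annotated start in RefSeq's GRCm38.p6, a later build than the mm9 coordinates above, printed 5′ to 3′ on the strand of the gene. Capitals mark the TEAD core motif GGAATG, searched on both strands, so that it also appears as CATTCC. Cyr61 lies at chr3:145649986-145650235, minus strand; Amotl2 at chr9:102717554-102717803, plus strand; and Ankrd1 at chr19:36119845-36120094, minus strand.
Cyr61: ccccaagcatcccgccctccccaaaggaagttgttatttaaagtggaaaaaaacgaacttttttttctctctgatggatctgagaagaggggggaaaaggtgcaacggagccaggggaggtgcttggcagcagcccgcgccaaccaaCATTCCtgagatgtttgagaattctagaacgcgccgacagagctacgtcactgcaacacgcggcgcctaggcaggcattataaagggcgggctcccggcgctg
Amotl2: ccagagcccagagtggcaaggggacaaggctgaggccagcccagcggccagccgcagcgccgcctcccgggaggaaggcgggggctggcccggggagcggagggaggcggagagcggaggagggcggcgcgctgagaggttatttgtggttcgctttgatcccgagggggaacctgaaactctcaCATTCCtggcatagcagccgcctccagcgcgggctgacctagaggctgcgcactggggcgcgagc
Ankrd1: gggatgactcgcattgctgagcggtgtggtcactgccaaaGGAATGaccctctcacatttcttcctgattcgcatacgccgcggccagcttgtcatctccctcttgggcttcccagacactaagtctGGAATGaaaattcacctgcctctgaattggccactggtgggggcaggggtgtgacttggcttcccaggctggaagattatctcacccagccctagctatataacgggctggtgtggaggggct
The motif begins 103 bases upstream of the start in Cyr61, 65 bases upstream in Amotl2, and 210 and 123 bases upstream in Ankrd1.

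Of the 10 genes, 7 had promoters in the RefSeq table, namely Yap1, Wwtr1, Tead2, Tead3, Cyr61, Ankrd1 and Amotl2, with 10 windows in all. The motif was found in 8 of the 10 windows and in 6 of the 7 genes, all but Tead2. Of 32851 windows of the same length, 12.6% held it. Cyr61, Ankrd1 and Amotl2 were picked as known YAP target genes, so the count is not independent of that choice. The windows of Wwtr1 overlap, and so count the same site again. The AP-1 motif TGANTCA, searched on both strands, was in 0 of the 10 windows and in 6.75% of all windows, and the CArG box, the serum response factor motif, was in 0 of the 10 and in 1.47% of all. A match is a description of these letters and not a site of binding.

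The Hippo kinase cassette differed little in both pairs. Of its 14 genes, all reached 1 FPKM in both pairs and 0 passed 2-fold. In the first pair 11 were higher and 3 lower in the library labelled cKO, where 60.9% of all genes were higher. Their median log2 difference was 0.07 beside 0.06 for all genes (-0.0014 after centring). Stk3, the gene of the kinase MST2, stood at 7.07 FPKM in the library labelled cKO and 5.18 FPKM in that labelled Het (log2 difference 0.39). Lats2, a kinase that phosphorylates YAP and is also a YAP target, stood at 14.8 FPKM in the library labelled cKO and 12.0 FPKM in that labelled Het (0.28). Its paralog Lats1 was level, at 11.5 FPKM in the library labelled cKO and 11.6 FPKM in that labelled Het. In the second pair 9 were higher and 5 lower in LacZ-positive cells, where 36.6% of all genes were higher. Their median was 0.06 beside -0.13 for all genes (0.23 relative to the pair's median). The largest differences were -0.30 for Taok3, 0.29 for Taok1 and 0.28 for Wwc1.

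Among 14 regulators that bind YAP or sit at junctions, 10 reached 1 FPKM in the first pair and 9 in the second, and 0 passed 2-fold in either. In the first pair 6 were higher and 4 lower in the library labelled cKO, with a median of 0.03 beside 0.06 for all genes, which turned to -0.04 after centring. Fat1, a giant protocadherin upstream of Hippo, stood at 37.5 FPKM in the library labelled cKO and 52.5 FPKM in that labelled Het (log2 difference -0.47). Its level was 39.6 FPKM in LacZ-positive and 58.4 FPKM in LacZ-negative cells (-0.55). Ptpn14, a phosphatase gene whose product binds YAP, was at 0.30 in the first pair and 0.52 in the second. The LIM-domain gene Wtip was at 0.34 in the first pair and -0.60 in the second. In the second pair 4 were higher and 5 lower, with a median of -0.16 beside -0.13 for all genes, which turned to 0.0061 after centring; Vgll3, a TEAD cofactor gene, stood at 2.73 FPKM in LacZ-positive and 1.41 FPKM in LacZ-negative cells (0.63).

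A list of 18 further YAP target genes known mostly from human cancer cells was less uniform. Of 15 that reached 1 FPKM in the first pair, 11 were higher and 4 lower in the library labelled cKO and 0 passed 2-fold. Their median was 0.21 beside 0.06 for all genes, of which 60.9% were higher. Rbms3, an RNA-binding protein gene, stood at 11.4 FPKM in the library labelled cKO and 6.79 FPKM in that labelled Het (log2 difference 0.67). Igfbp3, which binds insulin-like growth factors, stood at 156 FPKM in the library labelled cKO and 99.3 FPKM in that labelled Het (0.65). Myof, a membrane repair gene, stood at 43.6 FPKM in the library labelled cKO and 28.0 FPKM in that labelled Het (0.62).

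Of 16 further targets measured in the second pair, 7 were higher and 9 lower in LacZ-positive cells, with a median of -0.08 that turned to 0.09 after centring, beside -0.13 for all genes, of which 36.6% were higher. Igfbp3 was the 1 gene past 2-fold, at 155 FPKM in LacZ-positive and 397 FPKM in LacZ-negative cells (log2 difference -1.35). Fjx1 was at -0.77 and Tgfb2 at 0.70. Igfbp3 thus shared the directions of Tead2 and Tead4, higher with the cKO label and lower in LacZ-positive cells. Each is also the more common direction of its pair. Of all genes compared, 60.9% were higher in the library labelled cKO and 63.4% lower in LacZ-positive cells.

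Immediate early genes, which stimuli switch on within minutes, were mostly higher in the first-named library of both pairs, as Cyr61 was. All 18 that reached 1 FPKM in the first pair were higher in the library labelled cKO and 9 of them passed 2-fold; their median was 0.98 beside 0.06 for all genes. Atf3 was at 1.69, Nr4a1 at 1.56 and Fos at 1.43, and Cyr61 at 1.55 lay among them. Of the same 18, 15 were higher in LacZ-positive cells and 3 passed 2-fold, namely Egr2 (1.88), Egr3 (1.11) and Fosb (1.05); the median was 0.50, or 0.67 after centring. Their part in the Cyr61 difference was not tested. Serum response factor and actin genes had 9 measured members in each pair: 7 were higher in the library labelled cKO (median 0.42, 0 past 2-fold), led by Actb at 0.53 and Actg1 at 0.49, with Vcl lower at -0.54. In LacZ-positive cells 4 were higher and 5 lower (median -0.01, turned to 0.16 by centring), and Cnn2, a calponin gene, was past 2-fold at 1.09.

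**Figure D4:**
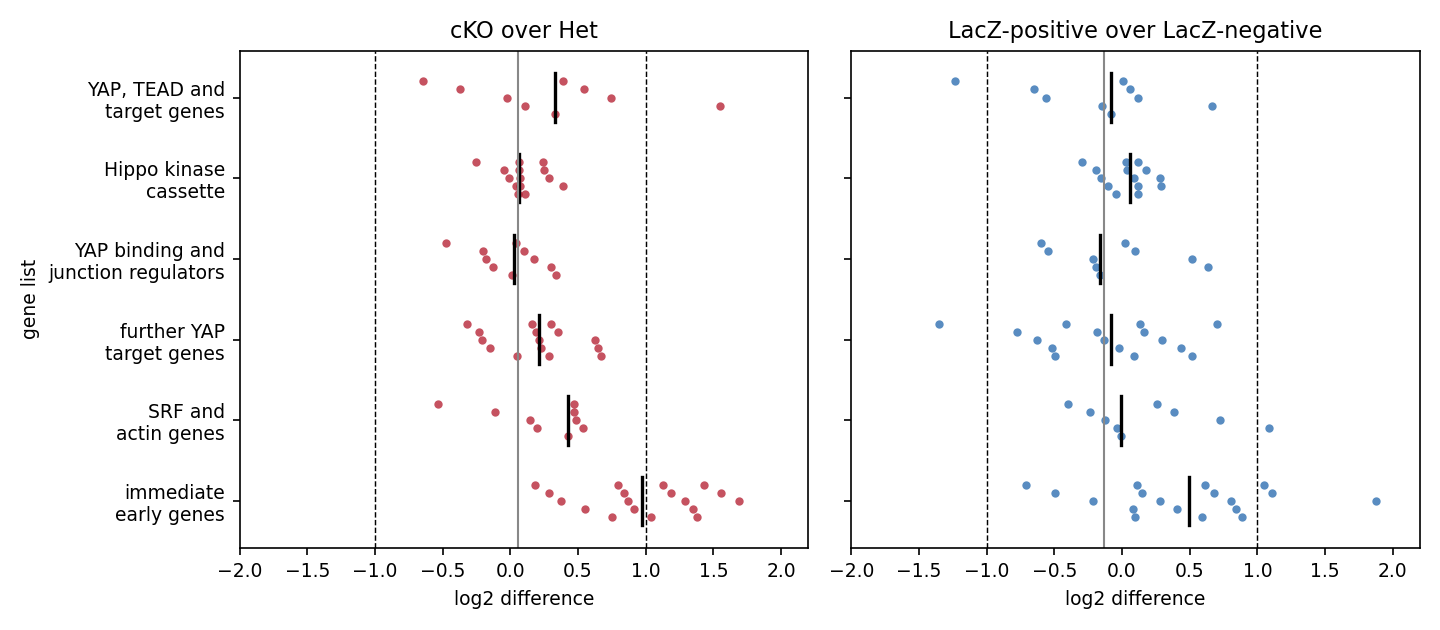
Log2 differences (horizontal axis) of the members of 6 gene lists (rows; 1 point per gene that reached 1 FPKM in either library). Left, cKO over Het; right, LacZ-positive over LacZ-negative. Black bars are list medians, the grey line is the median of all genes (0.06 at left, -0.13 at right) and dashed lines mark 2-fold. Points of the Hippo kinase cassette cluster within 0.4 of 0 in both panels, and those of the immediate early genes lie to the right at left, with a median of 0.98.

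Genes of other cells, some of which are rich in Ctgf and Cyr61, each stood below Ctgf and Cyr61 in every library. Some reached the levels of TEAD genes. Col1a2 was at 12.5 FPKM in the library labelled cKO, beside 7.52 FPKM for Tead1. The melanocyte gene Dct was at 15.2 FPKM in LacZ-positive cells, beside 7.64 FPKM for Tead2. Of 6 fibroblast markers, 2 reached 1 FPKM in the first pair and 3 in the second; their summed level was 23.1 FPKM in the library labelled cKO and 14.7 FPKM in that labelled Het, and 10.9 FPKM in LacZ-positive and 18.1 FPKM in LacZ-negative cells. The sum rested mainly on Col1a1 and Col1a2. Col1a1 was past 2-fold in the first pair, as Cyr61 was, at 10.3 FPKM in the library labelled cKO and 3.72 FPKM in that labelled Het (log2 difference 1.26), and stood at 6.29 FPKM in LacZ-positive and 13.1 FPKM in LacZ-negative cells (-0.95). Dcn was past 2-fold in the second pair, against the direction of the sum, at 2.16 FPKM in LacZ-positive and 0.423 FPKM in LacZ-negative cells (1.15). By contrast, Pdgfra was at 0.204 FPKM or less and Col3a1 at 0.131 FPKM or less in all 4 libraries, and Lum is listed at 0 in the library labelled Het and in LacZ-positive cells. Summed endothelial markers (5 genes, 0 at 1 FPKM) were at 0.377 FPKM in the library labelled cKO, 0.433 FPKM in that labelled Het, 1.20 FPKM in the LacZ-positive and 1.11 FPKM in the LacZ-negative library. Leukocyte markers (2 of 5 at 1 FPKM in each pair) summed to 8.37 FPKM in the library labelled cKO and 5.19 FPKM in that labelled Het, and to 4.55 FPKM in LacZ-positive and 3.46 FPKM in LacZ-negative cells. Melanocyte markers (1 and 3 of 5) summed to 2.11 FPKM in the library labelled cKO and 3.25 FPKM in that labelled Het, and to 19.6 FPKM in LacZ-positive and 14.8 FPKM in LacZ-negative cells. Muscle and Schwann cell markers (2 and 1 of 5) summed to 4.60 FPKM in the library labelled cKO and 5.16 FPKM in that labelled Het, and to 3.13 FPKM in LacZ-positive and 2.08 FPKM in LacZ-negative cells. The 7 cell cycle genes, all past 2-fold in both pairs (lower in the library labelled cKO, higher in LacZ-positive cells), summed to 5.62 FPKM in the library labelled cKO and 41.1 FPKM in that labelled Het, and to 143 FPKM in LacZ-positive and 23.0 FPKM in LacZ-negative cells. Top2a was at -2.58, Cdk1 at -2.17 and Ccna2 at -1.82 in the first pair, and Ccna2 at 2.67, Cdk1 at 2.53 and Ccnb1 at 2.44 in the second. The part of these markers in the YAP and TEAD values was not tested.

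Set across the pairs, Ctgf and Cyr61 differed far more than within them. The tables were normalized separately, and age, sex, strain, stage and genotype all differ between them, so these causes cannot be told apart and the values are a description. From high to low, Ctgf ran cKO, Het, LacZ-negative and LacZ-positive, and its lower value in the first pair was 9.03 times the higher value in the second. For Cyr61 this ratio was 5.42. By level Ctgf ranked 146 in the library labelled cKO and 143 in that labelled Het, against 1712 in the LacZ-positive and 1289 in the LacZ-negative library; Cyr61 ranked 170 in the library labelled cKO and 404 in that labelled Het, against 2429 in the LacZ-positive and 4173 in the LacZ-negative library. Among 8748 genes at 5 FPKM or more in all 4 libraries, 7 (0.0800%) were at least 5 times higher in both libraries of the first pair than in both of the second. Besides Ctgf and Cyr61 they were Thbs1, a matrix glycoprotein gene (11.4 times), the chemokine gene Cxcl12 (7.76), Fxyd6 (5.46), the phospholipase gene Pla2g4a (5.12) and the bulge surface gene Cd200 (just over 5). This rule was chosen after the values were seen. The opposite direction also held 7 genes.

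Other members shifted less across the pairs. Amotl2 was 2.03 times higher by the same measure, and Tead3 (1.02) and Yap1 (1.13) were barely separated. Wwtr1 and Tead1 ran the other way, with both libraries of the first pair below both of the second. Of the 8 members at 5 FPKM or more in all 4 libraries, 5 were higher in both libraries of the first pair, beside 23.0% of all such genes, and 2 were lower, beside 31.3%. Actb lay at 539 FPKM in the library labelled cKO, 373 FPKM in that labelled Het, 424 FPKM in the LacZ-positive and 560 FPKM in the LacZ-negative library. Fos, at 938 FPKM in the library labelled cKO, 348 FPKM in that labelled Het, 551 FPKM in the LacZ-positive and 366 FPKM in the LacZ-negative library, overlapped between the pairs, unlike Cyr61. Of the 16 immediate early genes at 5 FPKM or more in all 4 libraries, 7 were higher in both libraries of the first pair and 0 lower. The shares of all such genes are the 23.0% and 31.3% given above. The further target list shares Lats2 and Ptpn14 with the lists above. Of its 16 measured genes, 6 were higher in both libraries of the first pair, 4 were lower and 6 overlapped. These 16 reached 1 FPKM in at least 1 library, a minimum for which no share over all genes is given. Among the 7 of them at 5 FPKM or more in all 4 libraries, 3 were higher and 0 lower, beside the same 23.0% and 31.3%. One of the higher genes was Axl, a receptor tyrosine kinase gene. It stood at 88.1 FPKM in the library labelled cKO, 69.0 FPKM in that labelled Het, 19.9 FPKM in the LacZ-positive and 16.0 FPKM in the LacZ-negative library.

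The genes most like each member were taken as those with the smallest distance between the pairs of log2 differences, over 4 libraries and 7382 other genes at 10 FPKM or more in at least 1 library and above 0 in all. For Cyr61 they were Fos (distance 0.15), Usp18 (0.15), an interferon-induced protease gene, and Nr4a1 (0.22). Usp18 reached 10 FPKM only in the library labelled cKO, at 22.2 FPKM, beside 6.82 FPKM in that labelled Het. It was near the floor in the second pair, at 1.62 FPKM in LacZ-positive and 0.834 FPKM in LacZ-negative cells, so its likeness there is weakly founded. For Tead2 they were the collagen gene Col6a1 (0.02), Ift57 (0.05), a gene of the cilium, and Leprel4 (0.06). Col6a1 stood at 142 FPKM in the library labelled cKO and 97.4 FPKM in that labelled Het, and at 62.0 FPKM in LacZ-positive and 149 FPKM in LacZ-negative cells. Yap1, being level, had very close neighbours, led by Zfp160 (0.0036), Ppa1 (0.0043) and Atp13a1 (0.0044). A small distance over 2 differences is a description of these libraries. Lats2, Taok1, Taok3, Fat1, Rbms3, Tgfb2, Actg1, Vcl, Pla2g4a, Ift57, Atp13a1 and Col1a1 share their interval with other rows. Reads may be divided between such rows. The list is not complete for the genes named beside the members. Only 5 of the 10 bulge and basal keratinocyte markers and 5 of the 7 cell cycle genes are alone in their interval.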

How the data were processed

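RNA sequencing libraries of 4 sorted populations of hair follicle stem cells were used, with 1 library each, and groups were taken from the labels. Per the labels' protocols, the RNA was purified on columns and made into Illumina mRNA libraries. The authors deposited FPKM values in 2 gene tables, per the file headers; the first also holds a log2 fold change deposited by the authors. Cufflinks 2.1.1, TopHat2 2.0.4, TopHat, mm9 and GRCm38 are named in the submitters' processing notes without roles; the sources used here do not state strand or multi-read settings. FPKM divide by each library's total, so abundant features shift all values, and depth is unknown.

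Each table holds 32091 rows. Of the symbols, 25 turned into dates in the first table were restored through a gene name table, which held 28040 of its identifiers; 3 list genes were found under older symbols. Rows of a symbol were summed. Coordinates are those of the tables, taken as mm9. Differences used a pseudocount of 1 and a minimum of 1 FPKM (Python 3.11.15, pandas 2.3.3). Their code was run on copies of a library with some genes changed by a set fold and no noise. That run checks the arithmetic only and not the differences reported here. No column of values was left unused.

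The 10 members and the 12 gene lists (119 entries) were chosen with earlier results of these data known. Named genes were the members, list genes past 2-fold, or else those with the largest differences (at most 3 a list and pair). For the marker lists of other cells, except fibroblast markers and Dct, only sums are given. For Yap1 and each member past 2-fold the 3 nearest genes were named (clone, further small RNA and mitochondrial tRNA names were also left out, beyond the planned rule). Lats1, Fos, Actb, Axl, the markers and the genes separated across tables were added after the values were seen. Alternatives were 8 planned and 1 added settings.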

Additional observations from a re-analysis of the deposited data

How the results depend on the processing

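No paired analysis was possible because each group holds 1 library, and for the same reason no library could be left out. The difference of Cyr61 in the first pair stayed past 2-fold under all 9 alternatives, between 1.48 and 1.55. That of Tead2 in the second pair stayed past 2-fold under 7 of the 8 alternatives in which it has a value, between -1.33 and -0.94; with a pseudocount of 5 there were 0 members past 2-fold. Tead2 shares its interval with another gene, so keeping only genes alone in their interval, chosen after seeing the data, also left 0. In the first pair 77 of 77 alternative values of members kept their direction and their side of 2-fold. In the second, 72 of 76 did; 3 values changed sign below 2-fold, those of Yap1 (0.09 with centring, 0.05 with upper-quartile scaling) and Tead1 (0.02 with centring). The median of the members (5 to 10 of them, by setting) lay between 0.22 and 0.39 in the first pair and between -0.08 and 0.09 in the second, with no stable sign there. Over all genes, 532 passed 2-fold in the first pair, against 784 with a pseudocount of 0.1, 303 with a pseudocount of 5, 335 without genes listed at 0 and 239 alone in their interval. In the second pair 966 passed, against 1443 with a pseudocount of 0.1, 460 with a pseudocount of 5 and 489 alone in their interval. Centring moved the share of higher genes among those past 2-fold in the second pair to 78.2% and upper-quartile scaling to 74.7%, against 64.2% as deposited. Low genes and those at 0 limit all of these counts, since depth is unknown.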
